A study of Mus musculus with 5 samples.

Results

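The genes described here build and maintain the primary cilium. They encode the subunits of intraflagellar transport (IFT), the transport motors, the BBSome, the transition zone and a few ciliary GTPases, centriole proteins and receptors. Members were taken by symbol: names that begin with Ift, Bbs, Tctn or Nphp and a number, together with 26 further named genes such as Kif3a, Cep290 and Pkd1. Of 18194 genes with a probe set of a single symbol, 48 were members, measured by 77 probe sets, and each gene was read from whichever of its probe sets had the highest average signal. Rpgrip1l, Pkd2, Arl13b and Arl6, which the rule also names, were not analysed here.

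RNA came from GFP-positive lung cells sorted by flow cytometry from SPC-GFP pups on postnatal day 2 and was hybridised to 1-colour Affymetrix arrays, 1 array for each of 5 biological replicates. The pups were offspring of SPC-GFP mice mated with the outbred ICR strain, and lungs were first picked for GFP under a microscope and dissociated with trypsin and EDTA. Sftpc encodes surfactant protein C (SPC), a marker of alveolar type 2 cells, which secrete surfactant; the labels do not describe the promoter that drives GFP. All 5 samples formed 1 group with no comparator, titles and source name alveolar type 2 cells while the design text names ciliated cells, and nothing says whether a replicate was 1 pup or a pool, so every p-value here reflects no more than the variation among these samples.

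The primary cilium is a single, immotile, antenna-like projection of the cell surface. Trains of IFT-B and IFT-A proteins carry cargo along its microtubules, outward by kinesin-II and back by cytoplasmic dynein-2; the BBSome loads membrane proteins for removal, and the transition zone at the base acts as a gate. The same IFT machinery also builds the motile cilia of multiciliated airway cells, whose beating axoneme needs further proteins such as axonemal dyneins and radial spokes. Hedgehog signalling in the lung passes through primary cilia.

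Deposited values were read as log2 signals, and their column medians ran from 7.12 to 7.19. Values below are mean ± SD over the 5 arrays unless given per replicate, and signals of different genes were not ranked against each other. The alveolar type 2 markers Sftpc, Sftpb, Sftpa1, Sftpd, Abca3, Slc34a2, Napsa and Lpcat1 were all above background, with means from 13.69 to 14.71. So were 7 of 7 alveolar type 1 markers, with means from 11.59 to 14.68. All 6 club cell markers were above background too, with means from 9.09 to 14.50. Of the ciliated cell markers, 41 of 46 measured were above background (89.1%, against 74.9% of all genes). Replicates 1 and 3 stood apart in control probe sets: the bacterial bioB and bioC controls averaged 12.57 in replicate 1 against 11.63 to 11.79 in the others, and the 3′ minus 5′ difference of the Actb control was 0.845 in replicate 3 against 0.542 to 0.599. That of the Gapdh control was lowest in replicate 1 (1.27) and highest in replicate 3 (1.67), with 1.39 to 1.60 in the others.

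The promoters of several members held the X-box, the motif bound by RFX transcription factors, which are known to control ciliary genes. Promoter sequences came from RefSeq (build GRCm38.p6; 250 bases before to 50 after an annotated start), and 43 of the 48 members matched at least 1. Both strands were searched for the full X-box and for the shorter motif GTTGCC, which many full X-boxes contain, so the counts overlap. A full X-box lay in the promoters of 7 of 43 members (16.3%), against 1.75% of 27025 genes with a promoter, and GTTGCC lay in 46.5% of members against 14.1% of genes. In the motile axoneme and ciliated marker list the shares were 16.2% and 45.9% of 37 genes. The members with a full X-box were Ift57, Bbs1, Ahi1, B9d2, Tctn1, Tctn2 and Tctn3. A match is a description of letters and not a bound site.

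The X-box promoters of the 4 members with the greatest spread between replicates among those 7 are shown so that the motif can be seen in place, 5′ to 3′ on the strand of the gene, with the X-box in capitals. For Ift57 on chromosome 16 (chr16:49699044-49699293, plus strand) the 250 bases before the start are given; 2 X-boxes lie there, with 73 and 47 bases between them and the start. For Tctn3 on chromosome 19 (chr19:40612325-40612481, minus strand) 157 bases are given, which end just before the outermost annotated start of the gene (position 40612324); 34 bases lie between the X-box and that start, and 127 bases lie between the X-box and the start of the transcript whose promoter was searched (position 40612231). For Ahi1 (chr10:20952560-20952589, plus strand) and B9d2 (chr7:25680788-25680817, plus strand) the motif lies in transcribed sequence, its first base 21 and 16 bases past the annotated start, and only 30 bases around it are given.
Ift57: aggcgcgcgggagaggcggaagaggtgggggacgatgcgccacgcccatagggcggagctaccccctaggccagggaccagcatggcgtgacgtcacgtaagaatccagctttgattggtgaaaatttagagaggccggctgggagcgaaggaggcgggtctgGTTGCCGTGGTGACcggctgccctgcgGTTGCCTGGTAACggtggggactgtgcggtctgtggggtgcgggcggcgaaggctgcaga
Tctn3: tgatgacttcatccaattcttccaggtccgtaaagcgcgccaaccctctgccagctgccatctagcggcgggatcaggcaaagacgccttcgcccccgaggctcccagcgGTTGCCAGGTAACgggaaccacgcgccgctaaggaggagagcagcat
Ahi1: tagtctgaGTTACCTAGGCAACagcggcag
B9d2: aacctgctGTTGCCCCAGCAACagtcgggg

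All 48 members gave a signal above background. The background of an array was set from 77 olfactory, vomeronasal, taste and trace amine receptor genes, presumed silent in lung, as the 95th percentile of their signals, and lay at 5.43 to 5.70. The call was limma's one-sided moderated test, with p-values adjusted over all genes by Benjamini-Hochberg and a threshold of 0.05. The share called was 74.9% of the 18117 genes tested, against 48 of 48 members. The member nearest to background was Tmem67, which encodes the transition zone receptor meckelin, at 6.07 ± 0.18 (limma adjusted p = 0.000696). With the 99th percentile as background Tmem67, Nphp4 and Bbs10 were no longer called. When markers of other organs set the background instead, at 9.23 to 9.47, 26 of 48 members (54.2%) were called, against 42.8% of all genes. That higher background rested on a few of its 42 genes that themselves gave signal, such as Mbp at 11.12 ± 0.09 and Alb at 9.53 ± 0.37.

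Most members, 45 of 48, differed by less than 2-fold between the replicates. The median range of a member over the 5 arrays was 0.49 log2 units or 1.41-fold, against 0.38 log2 units or 1.30-fold for all genes above background. A range of at least 1 log2 unit, which is 2-fold on the deposited scale, was found in 3 of 48 members (6.25%) against 9.86% of genes above background. Each gene's variance was also divided by that fitted by limma for genes of like signal and tested with a one-sided F test. At an unadjusted p under 0.05, 2 members passed (4.17%), against 5.58% of all genes. After Benjamini-Hochberg adjustment over all 18194 genes, 0 members and 0 genes passed. The test had 4 and 4.22 degrees of freedom, so 0 calls after adjustment do not show that genes varied little. The club cell gene Scgb3a1 spanned 23.9-fold and still had an adjusted p of 0.81 (F test with limma's fitted variance). Neither the 6.25% nor the 4.17% of members exceeded the share of genes in general.

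**Figure D1:**
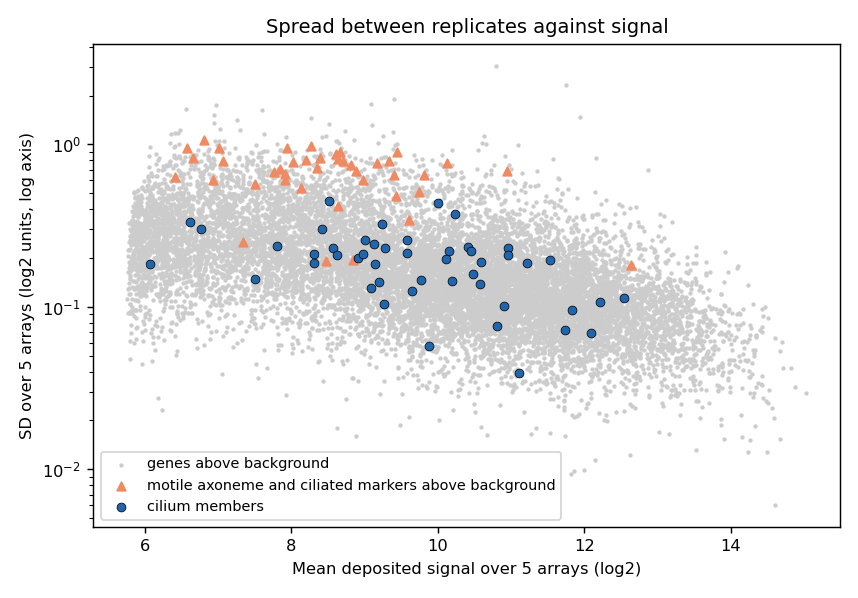
SD over the 5 arrays (log2 units, log axis) against mean deposited signal (log2) for each gene above background in grey, the 48 cilium members in blue and the 41 motile axoneme and ciliated markers above background as orange triangles. The members lie within the grey cloud, with a median SD of 0.20, and most orange triangles lie along its upper edge.

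The members nevertheless ordered the replicates in one way more often than genes in general. Replicate 1 held the highest value in 26 of 48 members (54.2%), against 22.4% of genes above background. Replicates 2, 3, 4 and 5 were highest in 7, 5, 1 and 9 members, against 16.2%, 26.6%, 13.5% and 21.2% of genes. Replicates 3 and 4 held the lowest value in 18 (37.5%) and 16 (33.3%) members, against 24.6% and 18% of genes, and replicates 1, 2 and 5 in 6, 3 and 5 members, against 22.8%, 19.9% and 14.7%. The position of a replicate is the median deviation of the members from their own means, less the same median over all genes above background. It was 0.21 in replicate 1 and 0.01, −0.06, −0.09 and −0.01 in replicates 2 to 5. The highest and lowest positions differed by 0.30 log2 units, or 1.23-fold. Replicate 1 lay above the others, which together spanned 0.08 log2 units when positions were computed without it.

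**Figure D2:**
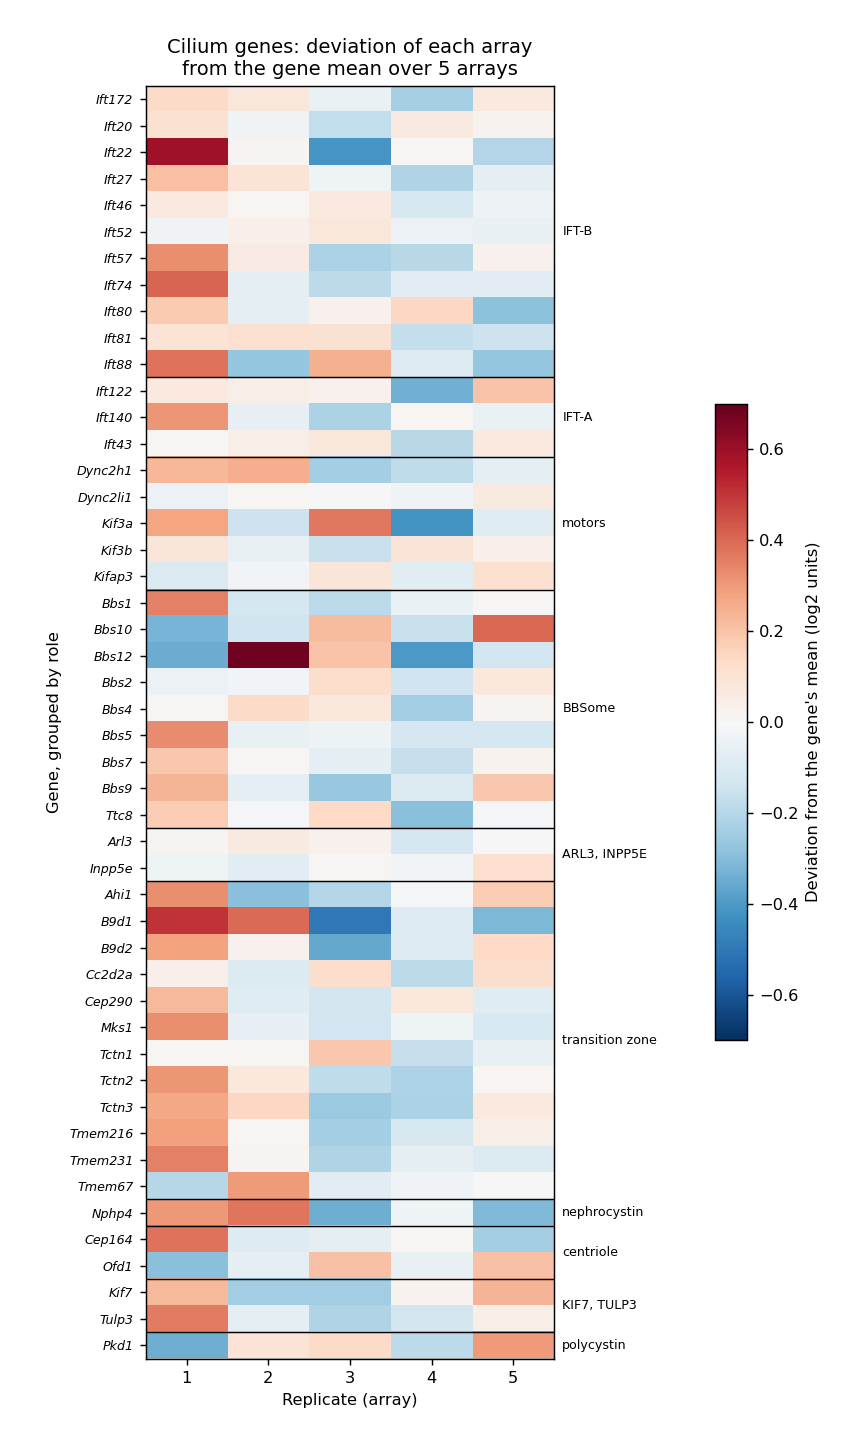
Deviation of each replicate (columns) from the gene's mean over 5 arrays, in log2 units, for the 48 members (rows) grouped by role; red is above and blue below the mean. The first column is red in most IFT-B and transition zone rows and blue in a few others, such as Bbs12, Ofd1 and Pkd1.

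Most motile cilium genes were also highest in replicate 1, over a far wider range. In the list of axoneme and ciliated cell markers the positions were 1.06, 0.29, −0.51, −0.45 and −0.37 in replicates 1 to 5. These positions spanned 2.96-fold, or 1.57 on the log2 scale. Replicate 1 was highest and replicate 2 next in 37 of the 41 markers above background (90.2%), in 9 of 48 members (18.8%) and in 5.27% of genes above background. The ciliogenesis factor Foxj1 read 8.81, 8.22, 7.30, 7.68 and 7.55, the axoneme assembly genes Ccdc39 10.36, 10.23, 9.50, 9.40 and 9.24 and Ccdc40 9.40, 8.57, 7.43, 7.62 and 7.98, and the radial spoke gene Rsph1 10.62, 9.56, 8.68, 8.90 and 8.91 in replicates 1 to 5. All 4 were highest in replicate 1 and next in replicate 2. At an unadjusted p under 0.05, 31 of the 46 markers (67.4%) passed the spread test, against 2 of 48 members and 5.58% of all genes. Over all genes 0 passed after adjustment. The linear signal summed over the 46 markers ran from 18729 to 40965 over the arrays, a ratio of 2.19, and that of the 48 members over a ratio of 1.16. Markers not above background were the axonemal dynein genes Dnah5 (5.46 ± 0.36) and Dnaic2 (5.63 ± 0.34) and the central apparatus genes Spag6 (3.55 ± 0.14), Spag16 (5.73 ± 0.52) and Spag17 (4.71 ± 0.76). Markers of other cells also differed in level between replicates. Neuroendocrine markers, with 4 of 5 above background (not Pcsk1, 5.64 ± 0.53), had positions of 0.35, 0.03, −0.58, −0.28 and 0.23, and their summed linear signal ran from 308 to 761. Leukocyte markers, with 8 of 8 above background, had positions of 0.08, −0.06, −0.67, 0.19 and 0.16, and a summed signal from 33686 to 48573. Lyz2 (14.34 ± 0.07) made up the largest part of that sum. Replicate 3 was lowest in 6 of the 8, but Lyz2 was lowest in replicate 5 and Csf1r in replicate 1. Fibroblast and smooth muscle markers, with 8 of 9 above background (not Lum), had a position of −0.57 in replicate 3. These 3 lists were lowest in replicate 3, which was also most often the lowest replicate of members (37.5%). By position, members were lowest in replicate 4 (−0.09). Other marker lists were lowest elsewhere: alveolar type 1 and club in replicate 1 (−0.12 and −0.16) and endothelial in replicate 2 (−0.21). Alveolar type 2 (−0.08) and mesothelial (−0.74, with 2 of 4 above background, not Wt1 and Lrrn4) were lowest in replicate 5. The bioB and bioC controls were highest in replicate 1, and the Gapdh 3′ minus 5′ difference was lowest in replicate 1 and highest in replicate 3. The part of these transcripts and controls in the order of the members was not tested. In sorted bulk RNA, fewer cells of a type and less RNA per cell cannot be told apart.

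**Figure D3:**
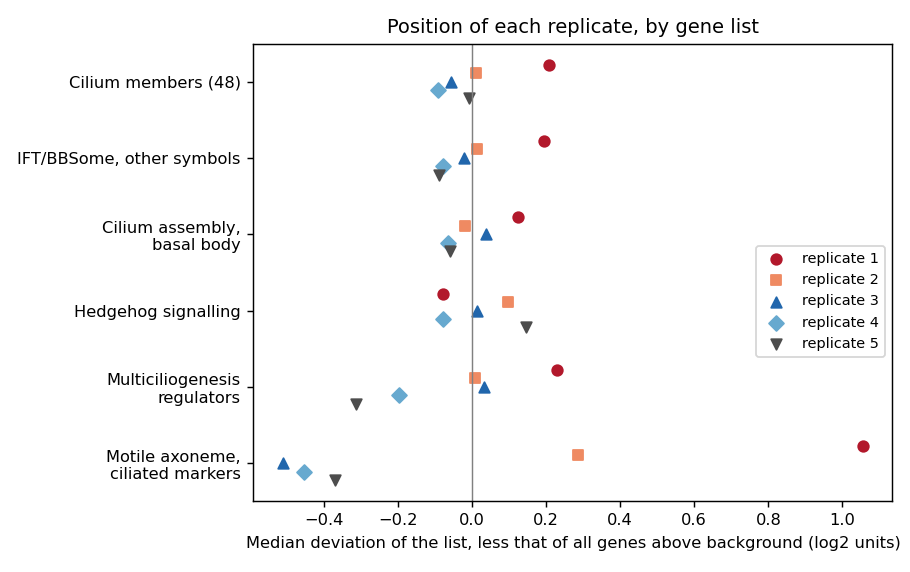
Position of each replicate (median deviation of a list, less that of all genes above background, in log2 units) for the 48 members and 5 other cilium gene lists; each symbol is 1 array. Replicate 1 lies highest for the members (0.21) and for every list but Hedgehog signalling, and the motile axoneme markers span the widest range (1.57).

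IFT-B is the larger train complex, which carries cargo such as tubulin toward the ciliary tip. Its 11 members were highest in replicate 1 in 9 genes, with positions of 0.19, 0.02, −0.03, −0.07 and −0.08. Ift22, a Rab-like GTPase of the complex, read 10.83, 10.25, 9.82, 10.24 and 10.03 in replicates 1 to 5 (10.24 ± 0.38). Replicate 1 was highest and replicate 3 lowest, and the range of 2.01-fold passed the spread test unadjusted and not over all genes (adjusted p = 0.877, F test with limma's fitted variance). Ift20, which also sits at the Golgi and sorts vesicles to the cilium, read 12.32, 12.19, 12.04, 12.27 and 12.23, so its replicates lay within 1.21-fold.

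Ift74, which forms a tubulin-binding pair with Ift81, read 10.82 in replicate 1 and 10.22 to 10.34 in the others. Ift57 (10.15 ± 0.22) was highest there too, and so was Ift88 (8.42 ± 0.30), a gene whose loss abolishes cilia in mice. Replicate 3 came next for Ift88, at 8.67 against 8.80 in replicate 1. Ift172 had 9.77 ± 0.15, Ift27, a GTPase needed for BBSome exit from the cilium, 10.48 ± 0.16, and Ift80 11.21 ± 0.19. Ift46 had 10.80 ± 0.08, Ift52 9.88 ± 0.06 and Ift81 10.19 ± 0.14. Ift52 was highest in replicate 3 and Ift81 in replicate 2, and their ranges stayed at 1.10- and 1.22-fold.

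IFT-A returns cargo to the base and admits membrane receptors. Ift43 read 12.55, 12.58, 12.62, 12.35 and 12.61, with replicate 4 alone below the rest. Ift140 read 11.84, 11.47, 11.31, 11.54 and 11.48 and was highest in replicate 1, as IFT-B genes were. Ift122 had 8.92 ± 0.20 and was lowest in replicate 4. The 3 IFT-A members thus put different replicates on top, and their position in replicate 4 was −0.18.

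The motor genes showed no common order. Kif3a, a motor subunit of kinesin-II, read 9.52, 9.10, 9.61, 8.82 and 9.16, with replicates 3 and 1 high and replicate 4 low. Its partner Kif3b had 9.26 ± 0.10, and Kifap3, the adaptor that links the motor to cargo, 11.83 ± 0.10. Dync2h1, the heavy chain of dynein-2, had 8.57 ± 0.23 and was highest in replicate 2. Its light intermediate chain gene Dync2li1 varied least of all members, at 11.06, 11.11, 11.10, 11.08 and 11.17, a 1.07-fold range. Of the 5 motor genes, 0 were highest in replicate 1, against 22.4% of genes above background. By position, however, replicate 1 lay highest, at 0.09, against −0.02, −0.01, −0.06 and 0.02 in replicates 2 to 5.

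The BBSome is a coat-like complex that moves membrane proteins out of cilia, and its loss causes Bardet-Biedl syndrome. Bbs1 read 8.97, 8.50, 8.43, 8.57 and 8.63, with replicate 1 above the other 4. Bbs5 (10.59 ± 0.19), Bbs7 (9.09 ± 0.13), Bbs9 (8.98 ± 0.21) and Ttc8, also named BBS8 (9.14 ± 0.18), were likewise highest in replicate 1. Bbs2 (10.90 ± 0.10) and Bbs4 (9.19 ± 0.14) were not, and both were lowest in replicate 4.

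Bbs10 and Bbs12 encode chaperonin-like proteins that help to assemble the complex. Bbs12 read 8.17, 9.19, 8.71, 8.11 and 8.38, the widest range of any member at 2.12-fold, with replicate 2 highest and replicates 1 and 4 lowest. It did not pass the spread test (adjusted p = 0.968, F test with limma's fitted variance). Bbs10 had 6.76 ± 0.30 and was lowest in replicate 1. Neither assembly factor was highest in replicate 1, and Bbs12 shared its lowest replicate, 4, with Bbs2, Bbs4, Bbs7 and Ttc8.

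Among the ciliary GTPase and lipid genes, Arl3, which releases lipid-modified cargo inside the cilium, read 12.10, 12.14, 12.11, 11.97 and 12.09. Inpp5e, a phosphoinositide phosphatase that Arl3 delivers there, had 11.74 ± 0.07. Neither was highest in replicate 1, and their ranges were 1.13- and 1.14-fold.

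The transition zone group, the gate between cilium and cell body, had the widest range among role groups of more than 2 genes. Its 12 members had positions of 0.29, 0.02, −0.19, −0.07 and −0.01, spanning 1.40-fold (0.49 log2 units), and 9 were highest in replicate 1. B9d1, a B9 domain protein of the MKS complex, read 10.50, 10.39, 9.50, 9.90 and 9.68 in replicates 1 to 5. Replicates 1 and 2 lay above the other 3, as in the motile axoneme genes, and the 2.01-fold range passed the spread test unadjusted and not over all genes (adjusted p = 0.858, F test with limma's fitted variance).

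Mks1, its partner in that complex, read 8.63, 8.25, 8.17, 8.28 and 8.19, with replicate 1 alone above the rest. B9d2 had 9.13 ± 0.24, and the membrane proteins Tmem216 and Tmem231 had 10.11 ± 0.20 and 9.58 ± 0.21. Tctn2 and Tctn3, tectonics of the same gate, had 8.31 ± 0.21 and 9.28 ± 0.23. Ahi1, the Joubert syndrome gene jouberin, had 9.58 ± 0.26 and Cep290, which links the transition zone membrane to microtubules, 7.50 ± 0.15. All 7 were highest in replicate 1. The exceptions were Tctn1 (9.65 ± 0.13) and Cc2d2a (10.57 ± 0.14), highest in replicates 3 and 5, and Tmem67, which was lowest in replicate 1.

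The IFT-B and transition zone groups together held 18 of the 26 members that were highest in replicate 1, out of 23 genes, and the other 25 members held 8. Of genes above background, 22.4% were highest in replicate 1. The 2 pooled groups were those with the most such members (9 of 11 and 9 of 12), so their pooling favours a difference. The difference was not tested. Replicate 1 was highest in 6 of the 7 members with a full X-box in the promoter sequences above, and in 19 of the 36 members whose searched promoters held none. The median deviation of replicate 1 was 0.31 in the former, with a range from 0.02 to 0.35, and 0.20 in the latter, with a range from −0.35 to 0.59. A range tends to widen with the number of genes, 7 and 36 here, so the ranges do not compare the sets. The difference between the medians was not tested. All of the 7 but Bbs1 belong to the transition zone group or, for Ift57, to IFT-B. Motif and role therefore cannot be told apart here.

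The remaining members fall in small role groups of 1 or 2 genes. Nphp4, a nephrocystin at the transition zone, read 6.92, 6.99, 6.27, 6.59 and 6.31, with replicates 1 and 2 above the others. Cep164, of the distal appendages that dock the basal body, read 11.33, 10.86, 10.89, 10.96 and 10.71, highest in replicate 1. Ofd1, at the end of the centriole, read 10.67, 10.90, 11.16, 10.91 and 11.17, lowest there.

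Kif7, a kinesin of the ciliary tip that restrains GLI factors, read 8.03, 7.56, 7.56, 7.83 and 8.04. Tulp3, which brings receptors into cilia with IFT-A, had 10.46 ± 0.22 and was highest in replicate 1. Pkd1, the polycystin receptor gene mutated in polycystic kidney disease, read 8.66, 9.10, 9.14, 8.82 and 9.30, lowest in replicate 1. Replicate 1 was thus lowest for Ofd1 and Pkd1 and highest for Cep164 and Tulp3.

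**Figure D4:**
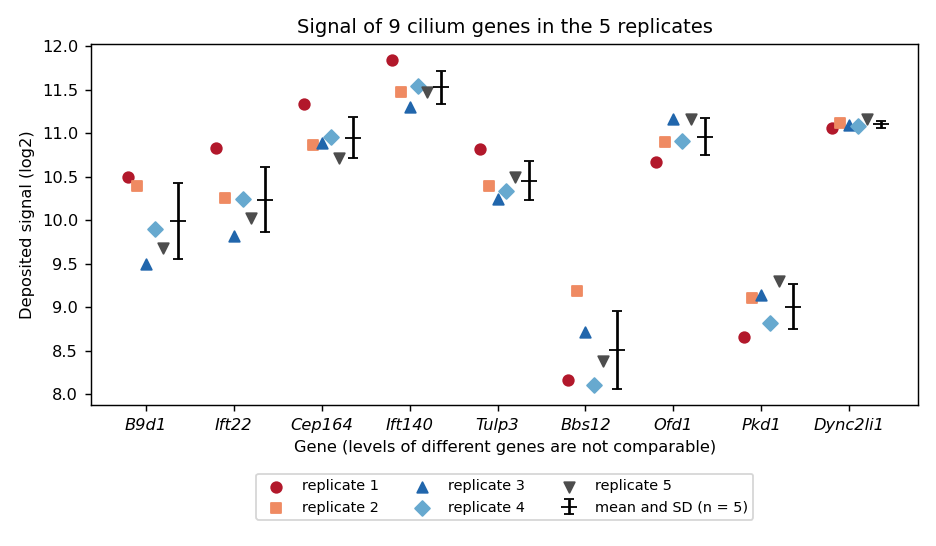
Deposited log2 signal of 9 members, chosen after their values were seen, in each of the 5 replicates (symbols), with the mean and SD (n = 5) beside them in black. B9d1, Ift22, Cep164, Ift140 and Tulp3 are highest in replicate 1, Ofd1 and Pkd1 are lowest there, Bbs12 is highest in replicate 2, and Dync2li1 spans 1.07-fold.

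A gene's other probe sets gave a separate reading of the same RNA. Of 18 members with several probe sets, 14 had a further one above background, and 5 of these 14 had the same highest replicate in both. Replicate 1 was highest in 6 of the 14 by the main probe set and in 6 by the further one. Of all genes above background, 22.4% were highest there by their main probe sets. How often 2 probe sets of other genes had the same highest replicate was not computed. For Tmem216 both probe sets put replicate 1 on top (10.40 and 10.20), and for Tctn3 all 3 did. Kif3a did not hold its order: its main probe set was highest in replicate 3 and the other 3 in replicate 5, while all 4 were lowest in replicate 4. The position of replicate 1 by the further probe sets was 0.11, and those of replicates 2 to 5 were −0.03, −0.04, −0.07 and 0.02.

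Subunits of the same complexes that carry other symbols were also most often highest in replicate 1. Of 16 symbols listed 15 were measured, all above background (74.9% of genes). The remaining symbol, Rabl5, is an older name of Ift22, which was read above as a member. Of the 15, 10 (66.7%, against 22.4% of genes above background) were highest there. Replicate 5 was lowest in 6 of them (40%, against 10.4% of members and 14.7% of genes) and replicate 3 in 3 (20%, against 37.5% of members and 24.6% of genes). Their positions were 0.19, 0.01, −0.02, −0.08 and −0.09, and 0 passed the spread test unadjusted. The IFT-A genes Wdr19, Wdr35 and Ttc21b had 10.49 ± 0.13, 10.67 ± 0.25 and 10.12 ± 0.21, and the IFT-B gene Traf3ip1 had 11.82 ± 0.24. Traf3ip1 read 12.18 in replicate 1 and 11.52 to 11.85 in the others. Wdr19 was highest in replicate 1 as well, but Wdr35 was highest in replicate 2 and Ttc21b in replicate 3.

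Genes of cilium assembly and the basal body were all above background, 28 of 28 measured, against 74.9% of genes. Of 30 symbols listed, Ick and Talpid3 were not found under these symbols. Replicate 1 was highest in 15 (53.6%, against 22.4% of genes above background), with a position of 0.13. The kinase gene Ttbk2, which licenses cilium growth, had 8.45 ± 0.12, and the centriole cap genes Ccp110 and Cep97 had 10.71 ± 0.21 and 8.94 ± 0.64. The distal appendage gene Cep83 had 10.42 ± 0.14. The 3 that passed the spread test unadjusted were Cep97, the transition zone gene Tmem107 and the retinitis pigmentosa gene Rpgr (10.7% against 5.58% of genes). Cep97 read 9.79, 9.07, 8.04, 8.72 and 9.06, Tmem107 10.99, 10.74, 10.11, 10.33 and 10.19, and Rpgr 9.97, 11.36, 10.08, 9.86 and 9.81. The first pair were highest in replicate 1, and Rpgr stood out in replicate 2.

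Hedgehog genes, whose proteins signal through the primary cilium, did not follow that order. All 14 were above background (74.9% of genes), and 2 (14.3%, against 22.4% of genes above background) were highest in replicate 1. The positions were −0.08, 0.10, 0.01, −0.08 and 0.15. The receptor gene Ptch1 had 13.04 ± 0.09, the signal transducer gene Smo 8.88 ± 0.22, and the transcription factor genes Gli1 and Gli2 7.47 ± 0.27 and 7.33 ± 0.75. Gli2, Hhip and Boc passed the spread test unadjusted (21.4% against 5.58% of genes). Gli2 read 7.03, 7.91, 7.29, 6.27 and 8.17, and Hhip, which encodes a Hedgehog-binding inhibitor, 9.57, 10.19, 9.36, 9.57 and 10.39. Both were highest in replicate 5 and next in replicate 2. Boc, a Hedgehog co-receptor gene, read 10.84, 10.47, 9.59, 10.06 and 10.66, highest in replicate 1. Fibroblast and smooth muscle markers, of which 8 of 9 were above background, had positions of 0.07, 0.33, −0.57, −0.11 and 0.43 and so were highest in the same replicates; their part was not tested. Lum was the one not above background, and the summed linear signal of the 9 ran from 23247 to 42596.

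Regulators of multiciliogenesis included genes with wide and with narrow ranges. Of 17 symbols listed 14 were measured, and Mcidas, Gmnc and Ccdc78 were not found under these symbols. Of the 14, 13 were above background (92.9%, against 74.9% of genes), the exception being Cdc20b (5.27 ± 0.27). The spread test was passed unadjusted by 5 (35.7% against 5.58% of genes). Ccno, needed for the amplification of centrioles, read 12.01, 11.36, 11.26, 11.61 and 11.19, and Myb 12.54, 12.01, 11.35, 11.18 and 11.14. The other 3 were Trp73, Deup1 and Foxn4. All 5 were highest in replicate 1. The RFX factor genes Rfx1 and Rfx2 had 9.85 ± 0.15 and 8.80 ± 0.26, and of the 6 RFX genes measured Rfx2 and Rfx3 were highest in replicate 1.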

How the data were processed

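The authors deposited 1 log2 value per probe set and array; the log base was inferred from the range of 2.46 to 15.24. Per the labels' protocols RNA was amplified and biotin-labelled with NuGEN kits; which software, background correction and normalization made the values is not given in the sources used here. No scanner files were used, so saturation could not be checked. Arrays of 45101 probe sets correlated at 0.987 to 0.994. A platform annotation of 2016 gave 34958 probe sets 1 symbol, 932 several and 9211 none; the last 2 kinds were left out.

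Above-background and spread tests used limma 3.58.1 (R 4.3.3; spread F test on 4 and 4.22 degrees of freedom) over all genes, and both were tested on simulated data. The number of arrays limits the precision. The members and lists were chosen with earlier results of these data known. All members are named; values per replicate are given for those with an unadjusted spread p under 0.05 or a range of at least 1 log2 unit, and for the leading member of each role. Of other lists, the leading 4 genes and those not above background are named, as is any gene singled out after its values were seen. For the fibroblast and smooth muscle markers only the latter are. Promoters shown were those holding a full X-box with the highest spread. Alternatives were other backgrounds, probe set choices, normalizations, filters, variance models and left-out replicates.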

Additional observations from a re-analysis of the deposited data

Results flagged for a closer look

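Among members and role groups, 4 of 48 genes and 1 group had a replicate far from the other 4. Chance gives such a gap in about 1 in 20 sets of 5 values, so a few flags are due among 48 genes. The share over all genes was not computed. Ift74 read 10.82 in replicate 1 against 10.22 to 10.34 in the others, Bbs5 read 10.92 against 10.46 to 10.55, and Mks1 read 8.63 against 8.17 to 8.28. Ift43 read 12.35 in replicate 4 against 12.55 to 12.62. The position of the 3 IFT-A genes, which include Ift43, in replicate 4 was −0.18 against 0.03 to 0.08 in the other replicates.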

How the results depend on the processing

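The count of members above background stayed at 48, or at all 42 measured without probe sets that can cross-hybridise, in every alternative except 2. It was 45 with the 99th percentile, where Tmem67 lay at −0.40 relative to background, and the share of all genes called there was not computed. With organ-restricted genes it was 26 of 48, against 42.8% of all genes. Against that background the log2 differences were −0.24 for B9d2, −0.75 for Bbs1, −2.61 for Bbs10, −0.86 for Bbs12, −0.18 for Bbs4, −0.28 for Bbs7, −0.40 for Bbs9, −1.87 for Cep290, −0.80 for Dync2h1, −0.46 for Ift122, −0.95 for Ift88, −0.13 for Kif3a and −0.11 for Kif3b. They were −1.57 for Kif7, −1.07 for Mks1, −2.76 for Nphp4, −0.37 for Pkd1, −1.07 for Tctn2, −0.095 for Tctn3, −3.30 for Tmem67 and −0.24 for Ttc8. Members with an unadjusted spread p under 0.05 numbered 1 without limma's robust option and 1 to 2 without 1 replicate each; without replicate 1 Ift22 was lost. The count of members highest in replicate 1 was 24 to 28 in the alternatives that keep replicate 1, apart from the further probe sets given last. The range of positions was 0.077 to 0.29 without 1 replicate each, the lowest value being that without replicate 1. Chosen after seeing the data, leaving out replicates 1 and 3 gave a range of 0.11, and the further probe sets gave 0.18 with 6 of 14 members highest in replicate 1. No paired analysis was possible because there is 1 group. Signal over background limits what can be read for Tmem67, Nphp4 and Bbs10.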
